A study of Caenorhabditis elegans with 2 samples.

Results

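Heterochronic genes set the order in which larval cell fates appear in Caenorhabditis elegans. The 10 described here, out of 19985 annotated protein-coding genes, form a list of gene names drawn up with earlier results of these data known, though the rule itself uses no measured value: lin-14, lin-28, hbl-1, lin-46, lin-66, lin-41, lin-29, lin-42, daf-12 and blmp-1. At each gene, SOX-4 ChIP-seq regions were taken from 3 kb upstream of the annotated 5′ end to the 3′ end, a stretch called the locus below. A region was placed by its summit, the base of highest signal that the authors gave for it. The chromatin came from hermaphrodite L1 larvae of strain OP517, with the allele unc-119(tm4063) on III and the transgene array wgIs517, which carries SOX-4, a transcription factor of the Sox family, tagged with GFP-FLAG at its C terminus. Larvae had been synchronized by starvation after bleaching, the labelled time was 6 hours after synchronization, and the tagged protein was precipitated through GFP. There was 1 group of 2 biological replicates, with no second condition, so no comparison between conditions can be made. No sample without the tag was analysed here, and in whole animals a weak region cannot be told apart from a strong one present in few cells.

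In the first larval stage, the DNA-binding protein LIN-14, the RNA-binding protein LIN-28 and the zinc-finger protein HBL-1 promote early fates. As larvae grow, microRNAs of the lin-4 and let-7 families reduce these proteins, and later LIN-41 declines so that the zinc-finger protein LIN-29 can direct the larval-to-adult switch of the skin. The clock-protein relative LIN-42 and the hormone receptor DAF-12 tie this order to the molting cycle and to food.

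SOX-4-eGFP optimal peaks, those the authors kept after comparing replicates by the irreproducible discovery rate, lay in the loci of 6 of the 10 genes. The genes were lin-66, lin-28, lin-14, lin-41, lin-42 and daf-12, and lin-14 held 2 of the 7 peaks. Of the 7, 5 (71.4%) lay inside the gene, more than 200 bp from its 5′ end, and these 5 were in introns. Over all pairs of an optimal peak and a protein-coding locus, 17.4% lay in that position, and 49.5% at loci of at least 10 kb. The share in introns over all optimal peaks is not given here. The lin-28 summit, in an intron of the longer transcript, was also 25 bp upstream of an internal transcript start. Among all protein-coding genes, 10% (1998 of 19985) had an optimal peak in a locus drawn the same way. The timing genes are long, with a median locus of 9.80 kb against 5.03 kb for all protein-coding genes, and a longer locus has more room for peaks. Of the 5 timing genes with a locus of at least 10 kb, 4 had an optimal peak, against 18.1% of all protein-coding genes of that size. Of the 5 shorter ones, 2 had one, against 9.14%. Per length, the 10 loci held 0.0473 optimal peaks per kb and all protein-coding loci 0.0180. These counts are a description of 10 genes and carry no test.

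Signal, the authors' own value for each region, ran from 52.9 to 118.8 at the 7 peaks, with a median of 68.6, against a median of 76.2 over all 1497 optimal peaks. The weakest optimal peak in the genome had a signal of 51.3, so daf-12 (54.7) and the weaker lin-14 peak (52.9) lay just above the end of the list. A longer pooled list of 30000 candidates, called on both replicates together, also includes background. It placed 45 regions in the loci of 9 of the 10 genes, where 67.1% of protein-coding genes had at least 1. Per length this was near the background, at 0.304 candidates per kb in the timing genes and 0.288 per kb over all protein-coding loci. The gene with none was blmp-1.

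**Figure D1:**
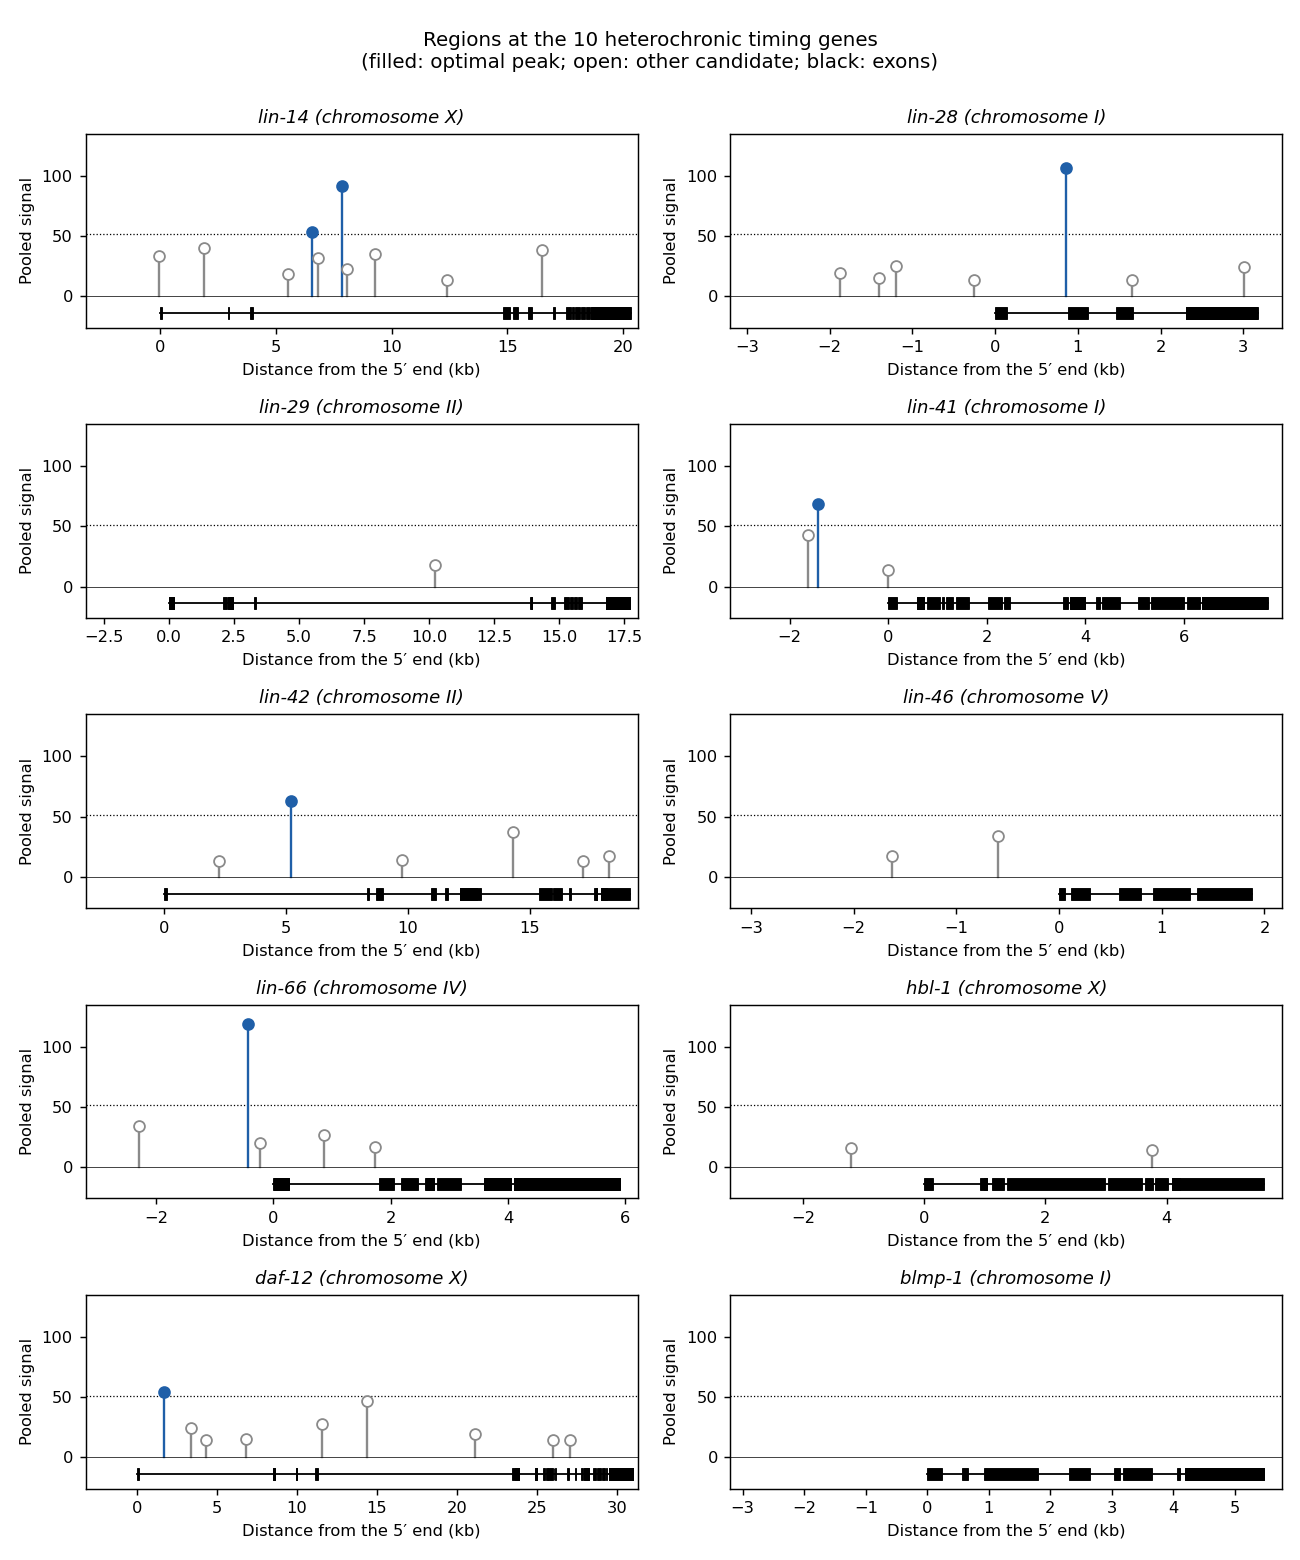
Pooled signal of each candidate region (vertical axis) by the distance of its summit from the annotated 5′ end in kb (horizontal axis, negative upstream), 1 panel for each of the 10 genes. Filled points are the 7 optimal peaks, open points the other 38 candidates, black bars exons of all transcripts, and the dotted line the lowest optimal signal, 51.3. The lin-14, lin-42 and daf-12 peaks stand in long introns, the lin-66 peak stands just upstream, and blmp-1 is empty.

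Whether the tagged protein was bound within the bases around a summit was not tested. For 5 of these peaks, windows of 101 bases centred on the pooled summit are given in the sense of the gene. They are from ce11, read from the RefSeq copy of the assembly. Capitals mark every match to the 4 motifs described further on, on either strand. The stronger lin-14 window is X:11473375-11473475 and the weaker X:11472096-11472196, both on the plus strand. That of lin-42 is II:1247107-1247207 on the minus strand, that of lin-66 IV:13887601-13887701 on the plus strand, and that of daf-12 X:10637559-10637659 on the plus strand.
lin-14, stronger peak: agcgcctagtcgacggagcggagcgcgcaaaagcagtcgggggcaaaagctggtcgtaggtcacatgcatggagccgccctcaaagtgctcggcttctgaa
lin-14, weaker peak: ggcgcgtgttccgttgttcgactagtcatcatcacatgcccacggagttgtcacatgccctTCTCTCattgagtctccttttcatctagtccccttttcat
lin-42: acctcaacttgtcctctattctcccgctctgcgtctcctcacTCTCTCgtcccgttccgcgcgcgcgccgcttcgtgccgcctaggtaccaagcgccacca
lin-66: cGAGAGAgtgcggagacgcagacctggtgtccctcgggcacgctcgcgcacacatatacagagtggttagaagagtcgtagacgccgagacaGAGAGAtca
daf-12: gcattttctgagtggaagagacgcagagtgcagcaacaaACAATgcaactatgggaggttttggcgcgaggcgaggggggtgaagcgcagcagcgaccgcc

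The gene lin-14, the founding target of microRNA repression by lin-4, held 10 candidates and 2 optimal peaks, the most of the 10 genes. It lies at X:11465560-11485871 on the plus strand and has 2 annotated transcript starts. The stronger peak (X:11473227-11473622) had a signal of 91.4 and pooled rank 547, with its summit 7865 bp downstream of the 5′ end. In replicate 1 it had a signal of 45.8 and rank 603, and in replicate 2 46.5 and rank 567. It was thus placed almost equally in both replicates. The weaker peak (X:11471948-11472343; signal 52.9, rank 1419) lay 6586 bp downstream. In replicate 1 its summit was met within 3 bp by a region of signal 32.1 and rank 1192. In replicate 2 the region of nearest summit had a signal of 17.3 and rank 4626, and the strongest region overlapping the peak, whose summit was 323 bp away, 22.6 and rank 2373. The weaker peak was therefore among the 1497 strongest regions of replicate 1 alone. Both peaks lay in intron 3 of the long transcript, which spans 11174 bp. Short noncoding RNA genes annotated inside lin-14 had starts nearer to both summits than lin-14 has. T25C12.6, of 121 bp, began 243 bp from the stronger summit and 1036 bp from the weaker one, and T25C12.5 and T25C12.7 also began nearer. At the annotated start of lin-14 itself there was a candidate with its summit 22 bp upstream. Its signal was 33.4 (rank 3258), below the optimal list, with rank 6304 in replicate 1 and 2324 in replicate 2.

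At lin-28, which encodes an RNA-binding protein that blocks let-7 maturation, a single optimal peak lay beside an internal transcript start. The gene is on the minus strand at I:8407630-8410804. The peak (I:8409747-8410142) had the second-highest signal of the group, 106.7 (pooled rank 413), and ranked 419 in replicate 1 (signal 55.1) and 498 in replicate 2 (signal 50.5). Measured from the outermost 5′ end, its summit was 859 bp inside the gene, in intron 1 of the longer transcript, and so outside the promoter window used below. Measured from the start of the shorter transcript it was 25 bp upstream. The other 6 candidates at lin-28 had signals from 13.1 to 25.1. The strongest of these (25.1) was nearer to the start of the neighbouring gene F02E9.7, at 416 bp, than to that of lin-28, at 1202 bp.

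The gene hbl-1, a hunchback-like zinc-finger gene on X at 5822142 to 5827755, had no optimal peak. Its 2 candidates had signals of 16 and 14.3 and pooled ranks of 20390 and 25138, in the lower part of the list of 30000. The list of replicate 1 had no region in the locus, and the best of replicate 2 had a signal of 16.5 and rank 5266. Among the early-fate genes, lin-14 and lin-28 thus carried optimal peaks and hbl-1 held candidates of low rank.

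The strongest peak of the group was at lin-66, which lowers lin-28 output after transcription. It was also the one peak in the promoter window of the outermost start, taken from 1000 bp upstream to 200 bp downstream of the 5′ end. The gene lies on IV at 13888079 to 13893986, plus strand, and the peak spans IV:13887453-13887848. Its signal was 118.8 and its pooled rank 349, with rank 497 in replicate 1 (signal 50.9) and 256 in replicate 2 (signal 71.1). The summit lay 428 bp upstream of the 5′ end. No other gene started nearer, piRNA genes included, and the nearest other protein-coding start, that of thoc-7, was 4917 bp away. The second candidate upstream of lin-66 had a signal of 34.2 (rank 3111), 2289 bp from the start.

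The gene lin-46, which encodes a gephyrin-like protein acting downstream of lin-28, had 2 candidates and no optimal peak. The stronger (signal 33.5, rank 3221) lay 595 bp upstream and was seen mainly in replicate 2, with a signal of 23.3 and rank 2216. The replicate 1 region overlapping it had a signal of 8.4 and rank 28271. The start of the neighbouring gene R186.8 was nearer to this summit, at 278 bp.

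Of the late regulators, lin-41 had an optimal peak and lin-29 did not. lin-41, a TRIM-NHL RNA-binding protein gene and let-7 target, is on the minus strand at I:9334800-9342496. Its peak (I:9343720-9344115) had a signal of 68.6 and rank 911, with its summit 1422 bp upstream of the 5′ end. Replicate 1 gave a signal of 36.1 and rank 944, from a region with its summit 177 bp away. Replicate 2 gave 44.9 and rank 597, with its summit 8 bp away. A second candidate adjoined it 1625 bp upstream (signal 42.6, rank 2081). Replicate 1 had 1 region over both summits where replicate 2 had 2. The summit of that replicate 1 region was 26 bp from the second candidate's, and so nearer to it than to the optimal one. No other gene start was nearer than that of lin-41, the next coding start being 5658 bp away.

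The lin-29 locus, 20.7 kb on II, is among the longest of the group, yet its single pooled candidate had a signal of 17.5 (rank 16798). No region of either replicate overlapped that candidate. The best regions of the locus ranked 5595 in replicate 1 and 15359 in replicate 2, at different places.

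The lin-42 gene, related to the circadian Period genes, is on the minus strand at II:1233236-1252359 and has 5 distinct transcript starts. Its optimal peak (II:1246959-1247354) had a signal of 62.6 and rank 1075, with rank 1030 in replicate 1 (signal 34.5). In replicate 2 the strongest overlapping region had a signal of 28.3 and rank 1470. A second replicate 2 region, with its summit 109 bp from the pooled one where that of the first was 116 bp away, ranked 16381. The summit lay in intron 1, of 8173 bp, 5202 bp downstream of the outermost start and 3122 bp upstream of the next one. The noncoding RNA gene F47F6.15, of 143 bp, began 4 bp from the summit, F47F6.13 began 189 bp away, and F47F6.11, at 5060 bp, was also nearer than the outermost lin-42 start, though not nearer than the internal one.

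For daf-12, the nuclear hormone receptor gene through which dafachronic acids act, the locus was the longest of the 10, at 34.0 kb, and held 9 candidates. The gene lies at X:10635908-10666875 on the plus strand. The optimal peak (X:10637411-10637806; signal 54.7, pooled rank 1335) had its summit 1701 bp downstream of the 5′ end, in intron 1. It ranked 1481 in replicate 1 (signal 28.4) and 1525 in replicate 2 (signal 27.8), so it fell outside the 1497 strongest regions of replicate 2 by a small margin. A second candidate just missed the optimal list, with a signal of 46.5 and rank 1766, 14404 bp downstream in intron 3. Replicate 1 placed this one higher than the optimal peak, at rank 1227 (signal 31.6), and replicate 2 far lower, at rank 10886 (signal 12.7).

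No region of any of the 4 lists had its summit in the 8.47 kb locus of blmp-1, a zinc-finger gene related to mammalian Blimp-1 that is on I from 10409302 to 10414773. Since the lists end at 30000 regions, this says only that no region there was strong enough to be listed.

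**Figure D2:**
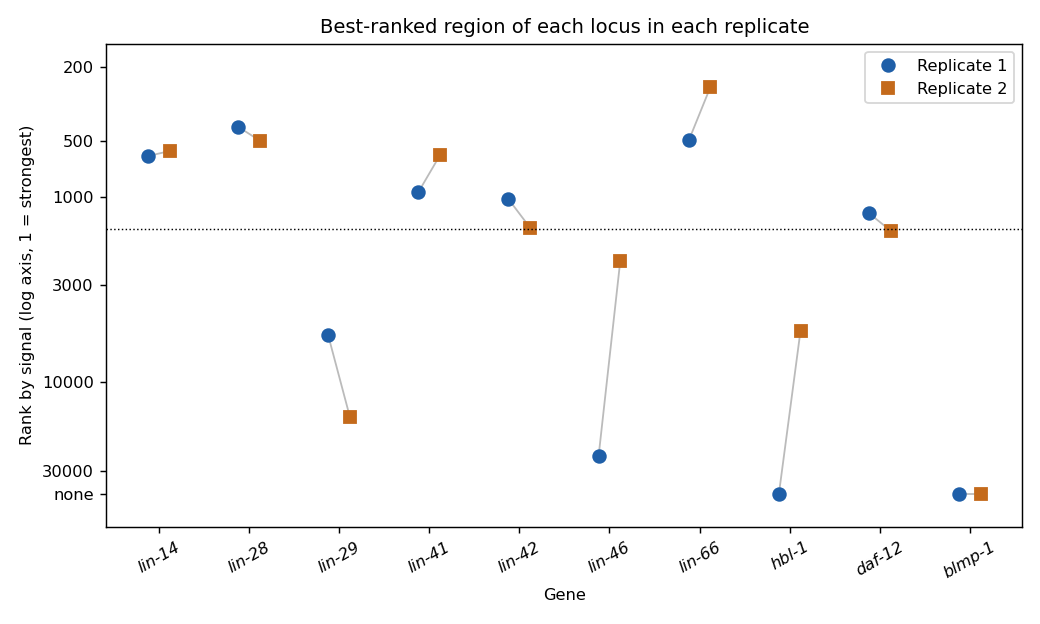
Rank of the best region in each locus (vertical axis, logarithmic and inverted so that strong regions are at the top) for each of the 10 genes, with replicate 1 as circles and replicate 2 as squares, and "none" where the list has no region. The dotted line is rank 1497, the length of the optimal list. The 6 genes with an optimal peak sit at or above the line in both replicates, daf-12 at 1525 in replicate 2 being the exception. Among genes with a region in both lists lin-46 differs most, at 24929 in replicate 1 and 2216 in replicate 2. The 2 points of a gene can be different regions, as at daf-12 and lin-46. For daf-12, rank 1227 in replicate 1 is a candidate below the optimal list, and the optimal peak ranked 1481 there.

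When the 1497 strongest regions of replicate 1 alone were used, the loci of lin-14, lin-28, lin-41, lin-42, lin-66 and daf-12 held 8 regions. The 1497 strongest of replicate 2 alone placed 5 regions, 1 in each of the same loci without daf-12. All 7 optimal peaks overlapped a region in both replicate lists. Of the 7, 5 overlapped one of the 1497 strongest in both, as did 65.3% of all optimal peaks (978 of 1497), and the weaker lin-14 peak and the daf-12 peak did so in replicate 1 alone. The optimal list was made from these same replicates, so this overlap is partly set by that choice. Of the 38 candidates below the optimal list, 19 overlapped a region in both replicates and 3 in neither. The same share over all other candidates is not given here, so 19 cannot be called high or low. Some of the 19, at lin-14, lin-41 and lin-66, adjoin an optimal peak and overlapped the same replicate regions as that peak. The lin-66 candidate of pooled rank 12123, for example, overlapped the regions of rank 497 and 256. Such overlap is not separate support from the replicates.

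Most of the 7 peaks lay inside the gene beyond the promoter window, where most optimal peaks at protein-coding loci did not. Only lin-66, 1 of 10, had a peak in the promoter window of its outermost 5′ end, against 5.67% of protein-coding genes. When windows around every annotated transcript start were used, lin-28 was added, giving 2 of 10 against 6.04%. Of the 7 peaks, 5 (71.4%) lay inside the gene beyond the window, all in introns, 1 was in the window and 1, that of lin-41, was farther upstream. Over all 2241 pairs of an optimal peak and a protein-coding locus, 17.4% were inside the gene beyond the window and 51.3% in the window. Among the 440 pairs at loci of at least 10 kb the shares were 49.5% and 30.5%. Gene length and an inner position go together in that list, and the part of length in the timing genes' pattern was not tested. For 3 of the 7 peaks, the pair at lin-14 and the one at lin-42, another annotated gene started nearer to the summit, and in each case it was a short noncoding RNA gene. No other protein-coding gene started nearer to any of the 7. Over all 2241 pairs, another annotated start was nearer in 58.1% and another protein-coding start in 45.0%. A peak in more than 1 locus enters these pairs once for each locus, which can raise both shares. The 7 peaks were each counted once, so the values are not like for like.

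**Figure D3:**
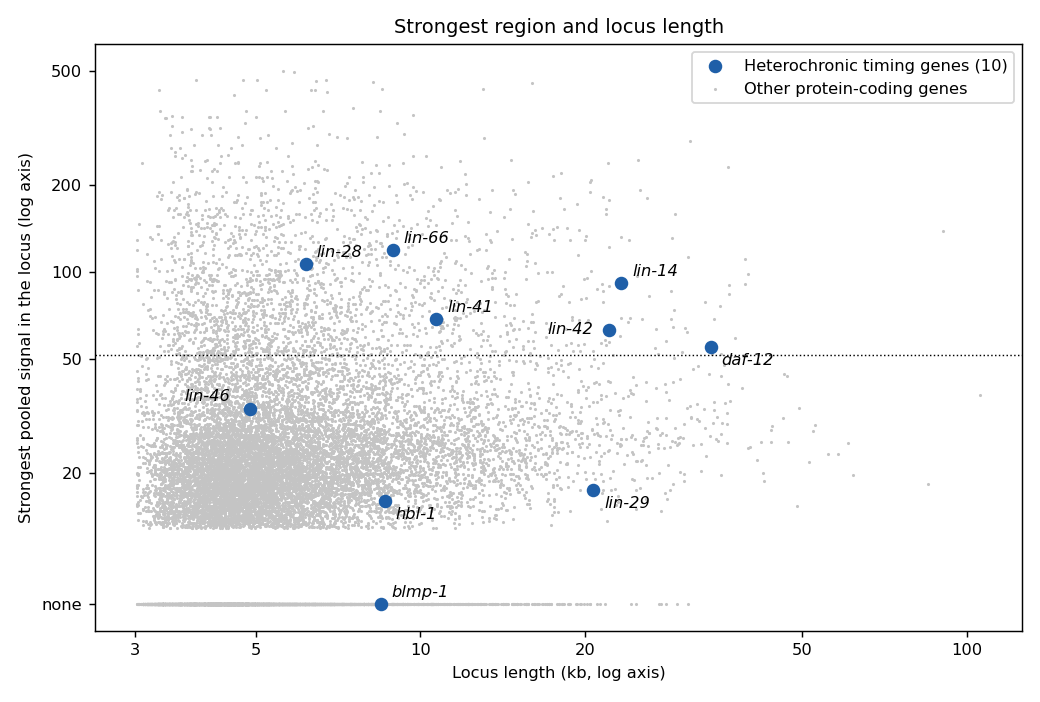
Strongest pooled signal in the locus (vertical axis, logarithmic, with "none" for loci without a candidate) against locus length in kb (horizontal axis, logarithmic) for the 10 timing genes, as large labelled points, and all other protein-coding genes, as small grey points. The dotted line is the lowest optimal signal, 51.3. The points for lin-66 and lin-28 are high at moderate lengths, and lin-29 is low although its locus is 20.7 kb long.

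Ranked by their strongest pooled region, the 10 loci ran in the order lin-66 (118.8), lin-28 (106.7), lin-14 (91.4), lin-41 (68.6), lin-42 (62.6), daf-12 (54.7), lin-46 (33.5), lin-29 (17.5), hbl-1 (16) and blmp-1, which had none. With no region taken as 0, the median over the 10 genes was 58.6, and over all protein-coding genes it was 17.8. The lin-66 locus was above 97.3% of all protein-coding loci by this measure, the daf-12 locus above 90.9%, and the hbl-1 locus above 43.3%. These medians and shares take no account of locus length, and a longer locus has more room for a strong region. The median locus was 9.80 kb for the timing genes and 5.03 kb for all protein-coding genes. The first 2 genes changed places between replicates. Replicate 1 put lin-28 (55.1) above lin-66 (50.9), and replicate 2 put lin-66 (71.1) above lin-28 (50.5). The next 4, lin-14, lin-41, lin-42 and daf-12, stood in the same order in both replicates and in the pooled list. For daf-12 the strongest region of replicate 1 (31.6) was at the candidate below the optimal list. The order is the same with the value of its optimal peak there (28.4). Each of the upper 6 ranked above each of the lower 4 in both replicates.

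The 7 summits were rich in GC. Within 50 bp of the summit, GC content ran from 49.5% at lin-28 and the weaker lin-14 peak to 64.4% at lin-42, with a median of 58.4%. The median was 44.6% over all 1497 optimal peaks and 31.7% over the other candidates. All 7 were above the median of all optimal peaks, and 35.6% of optimal peaks reached the lowest GC content found among the 7. The median was 43.6% at the 338 optimal peaks inside protein-coding genes and outside promoter windows, and 46.5% at those in promoter windows. The part of position in the GC content of the 7 peaks was not tested. The lin-42 window printed above holds a run of alternating C and G.

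**Figure D4:**
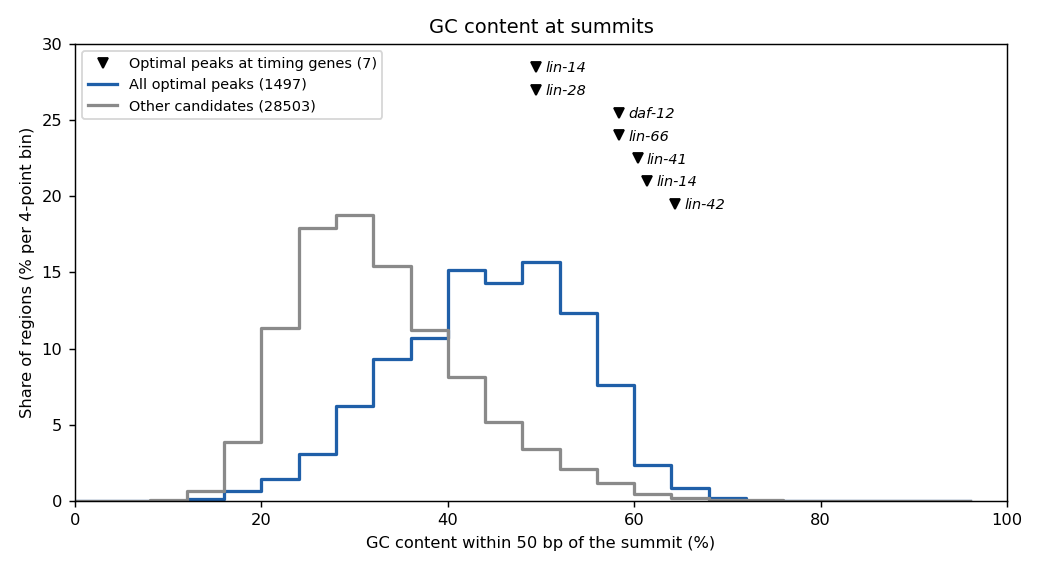
Share of regions in percent (vertical axis) by GC content within 50 bp of the summit in percent (horizontal axis), in bins of 4 percentage points. The 7 peaks at timing genes are triangles at their own GC content, staggered in height for legibility only, the blue line is all 1497 optimal peaks and the grey line the 28503 other candidates. The triangles lie between 49.5% and 64.4%, in the upper part of the blue curve.

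The search for short motifs covered 4 motifs, either strand, in windows reaching 50 bp to each side of a summit. The Sox core ACAAT was found at 1 of 7 peaks, that of daf-12, where it began 11 bp before the summit. It was found at 23.2% of all optimal peaks and at 29.0% of other candidates. The longer Sox form ACAAAG was found at 0 of 7, against 4.07% of optimal peaks and 5.05% of other candidates. GAGAGA, a simple repeat, was found at 3 of 7, namely the weaker lin-14 peak, lin-42 and, with 2 matches, lin-66. It was found at 19.4% of all optimal peaks and 6.02% of other candidates. The E-box CACGTG was found at 0 of 7, against 5.41% and 1.84%. These 4 motifs do not overlap one another in the windows, and a match is a match of letters only. GC content differed between the 7 peaks, all optimal peaks and the other candidates, and its part in these shares was not tested.

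A list of 30 other genes of the pathway was chosen by name. Of its 24 protein-coding genes, 5 had an optimal peak in the locus, against the 10% of all protein-coding genes. The strongest was at nhl-2 (signal 361.5, 817 bp upstream), a TRIM-NHL cofactor of the microRNA-induced silencing complex. Next came puf-9 (213.5, 287 bp upstream), a Pumilio-family repressor of hbl-1, and lin-53 (174.7, 229 bp upstream), a histone-binding chromatin subunit. The others were ain-1 (91.3, 967 bp upstream), a GW182-type partner of Argonaute that had 2 optimal peaks, and din-1 (55.6, 1590 bp upstream), a co-repressor of DAF-12. Of these 5 strongest summits, 4 were in promoter windows. Over the whole list, let-7 included, 6 genes had an optimal peak. The number was 4 when each peak went only to the nearest protein-coding 5′ end. That setting cannot count the microRNA gene let-7, so its 4 stand beside the 5 protein-coding genes. These counts take no account of locus length. Genes without an optimal peak included the Argonaute genes alg-1 (strongest signal 14.5) and alg-2 (18.3) and the Dicer gene dcr-1, which had no pooled candidate.

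Among the 5 microRNA genes of that list, only let-7 had an optimal peak in its locus, against 14.6% of the 261 annotated microRNA genes. Its signal was 52.9 and its pooled rank 1416, close to the end of the optimal list, and the summit was 1849 bp upstream of the annotated 5′ end. In the replicates the best region of the let-7 locus ranked 1634 and 1712, outside the 1497 strongest in both. The lin-4 locus had a strongest signal of 23, mir-84 18.1, and mir-48 and mir-241, which are neighbours on V, shared a region of 13.7. The lincRNA gene lep-5, a timing regulator of the LIN-28 and let-7 branch, had a candidate of 19.7.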

How the data were processed

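The authors deposited, per the notes with the files, a list of regions for each replicate, a list called on both replicates together, and an optimal list thresholded by the irreproducible discovery rate. The signal in these deposited lists is the authors' own value per region, on a scale that is not given in the sources used here, nor are the peak caller and the threshold. Regions were ranked by it inside each list only. Each of the 3 longer lists holds 30000 regions, background included. Read depth is unknown. The optimal peaks were the 1497 strongest pooled regions.

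Lists on ce11 were joined by summit to Ensembl release 115 genes on WBcel235, the same assembly, without 2128 pseudogenes. RefSeq symbols were matched by WormBase identifier for 44750 of 46926 genes. The outermost annotated start was taken as the 5′ end. In a replicate, the strongest region overlapping a peak by at least 1 bp gave its value, with the region of nearest summit where these differ in the text or the peak was not optimal. Lists on ce10 and the control experiment were not analysed here.

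The members, the gene lists, the motifs and the settings were chosen with earlier results of these data known. The text names all 10 members, pathway genes with an optimal peak, and genes with a start nearer to a member's optimal summit; R186.8, F02E9.7, thoc-7, the microRNA genes, lep-5, alg-1, alg-2 and dcr-1 were added after their values were seen. With 1 group, nothing was tested between conditions, and counts over genes are descriptions. The assignment of regions to loci was checked on planted regions. Alternatives covered each replicate alone, stronger peaks, other windows, overlap, gene assignment and locus length. Computations used Python 3.11.15, numpy 2.4.6 and pandas 2.3.3.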

Additional observations from a re-analysis of the deposited data

How the results depend on the processing

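Of 39 alternative values, 34 stayed within a limit. For counts the limit was 1.5 times, and for candidates per kb it was the difference between replicates. The count at loci of at least 10 kb, 4, is out of 5 genes and is not comparable with 6 of 10. With the stronger 748 of the optimal peaks, 3 genes (lin-14, lin-28 and lin-66) held 3 peaks in place of 6 genes and 7 peaks. The number of genes with an optimal peak was 5 to 6 and the number of peaks 5 to 8 when 1 replicate was left out, and 5 and 6 with 1 kb upstream, which dropped lin-41. Median candidates per kb of locus, 0.276 in the pooled list, ran from 0.312 to 0.367 without 1 replicate. ACAAT was at 2 of 7 peaks within 100 bp of the summit in place of 1. With protein-coding starts alone, 0 of 7 peaks had another start nearer in place of 3. No cause of these shifts was tested beyond the narrower list or window itself. No paired analysis was possible because the series has 1 group. Read depth and the strength of the control are unknown, so a locus without a listed region is not shown to lack SOX-4-eGFP.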

Other observations

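Several candidates below the optimal list had an internal transcript start of a timing gene as the nearest one, and those at lin-42 and daf-12 given here were chosen after their values were seen. At lin-42 a candidate of signal 37.1 (rank 2636; rank 5200 in replicate 1 and 3161 in replicate 2) had its summit in intron 6, 1055 bp upstream of an internal start, in a window with 74.3% GC, the highest of the 45 candidates. At daf-12 a candidate of signal 28.0 (rank 4943) lay 407 bp downstream of an internal start, with rank 4612 in replicate 1 and no overlapping region in replicate 2.

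The windows of 6 of the 7 optimal summits at timing genes held no base that the RefSeq assembly marks as repeat or low complexity, and 18.8% of the daf-12 window was so marked. Over all optimal peaks 33.3% of windows held no such base, and over other candidates 15.1%. The windows of these 7 are also rich in GC, and the 2 properties were not separated.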
